A study of Mus musculus with 9 samples.

Results

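miR-146a and miR-146b are the products of 2 mouse genes that make nearly the same guide strand, and 3 of their mature names were followed here in milk fat: mmu-miR-146a-5p, mmu-miR-146b-5p and mmu-miR-146b-3p. These 3 names were looked up by name among the 1915 mature miRNAs of the count table, and each had 1 row in it. All 3 passed the filter on low counts that left 312 miRNAs for testing. The milk fat came from first-litter mice of the outbred ICR (CD1) stock on lactation day 10. In one group, 4 dams ate a high-fat diet with 60% of its energy as fat (5.24 kcal per g), and in the other, 5 dams ate a control diet with 10% (3.85 kcal per g). Sucrose gave 7% of the energy in both diets, and the dams ate them from 4 weeks of age, through 4 weeks before mating, pregnancy and lactation. Each of the 9 libraries was 1 dam, with 837817 to 3897109 miRNA reads in all. Dams were pair-housed before mating and the cage mates are not given, so cage could not enter the tests. The p-values treat the 9 dams as independent and may be too small if cage mates were alike.

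Both miR-146 genes are known as brakes on inflammation. NF-kB, the transcription factor switched on by Toll-like receptors, induces miR-146a. The miRNA then represses Traf6 and Irak1, signalling proteins that carry the receptor signal to NF-kB. This loop was first shown in human monocytes, and mice that lack miR-146a develop overactive myeloid and T cells. miR-146b is carried by a different chromosome and is an abundant miRNA of milk and mammary epithelium.

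The mature strands are shown because their likeness sets what the counts can tell apart. The sequences are from RefSeq (GRCm38.p6), written 5′ to 3′, with the seed (bases 2 to 8, which pair with target transcripts) in capitals.
miR-146a-5p: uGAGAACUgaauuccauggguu
miR-146b-5p: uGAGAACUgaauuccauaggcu
miR-146b-3p: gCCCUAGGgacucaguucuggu
miR-146a-3p: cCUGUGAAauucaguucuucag
The 5p strands share their seed with each other and with no other name of the 1679 mature miRNAs in the reference table. They are identical at 20 of 22 positions. Counted from 1 at the 5′ end, with the miR-146a-5p base first, they differ by G18A and U21C, so a read that ends within the first 17 bases fits both. No source used here says how such reads were assigned. A read that reaches base 18 but not base 21 tells them apart by 1 base only. Whether misread bases of miR-146b-5p added to the miR-146a-5p counts was not tested. The 3p strands are unlike: position by position they match at 4 of 22 bases, and neither shares its seed with another name. miR-146a-3p, the other strand of the miR-146a hairpin, is given beside the members for comparison.

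The hairpins are shown with both mature strands in capitals, since the arm counts below refer to them.
Mir146: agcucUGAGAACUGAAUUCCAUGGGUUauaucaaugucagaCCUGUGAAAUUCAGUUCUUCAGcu
Mir146b: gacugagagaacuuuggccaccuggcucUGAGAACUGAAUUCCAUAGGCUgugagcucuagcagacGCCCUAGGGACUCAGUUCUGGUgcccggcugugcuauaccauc
Mir146, the miR-146a gene, lies on the minus strand of chr11:43374397-43374461 between annotated genes, 11021 bases from the nearest one, the lincRNA Gm12148 (GENCODE vM21, GRCm38). Mir146b lies on the plus strand of chr19:46342762-46342870, in an intron of the protein-coding gene Mfsd13a, which is read in the same direction.

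The sites that the shared seed can pair with were looked up in Traf6 and Irak1. The motif AGTTCTC, the reverse complement of bases 2 to 8, was searched on the transcript strand of the longest annotated 3′ untranslated region (UTR) of each protein-coding gene. Of 21037 such UTRs, 11.2% held it. The Traf6 UTR of 4170 bases held 4 matches, against 31.6% of UTRs within 20% of its length with at least 1 match. The Irak1 UTR of 1526 bases held 2, against 11.4% of UTRs within 20% of its length with at least 1. All 6 matches are in capitals below, and an A follows each of them.
Traf6 site 1, chr2:101697945-101697966, plus strand: ccgctctggtgttgAGTTCTCa
Traf6 site 2, chr2:101698009-101698030, plus strand: ccctggaaggcttaAGTTCTCa
Traf6 site 3, chr2:101698821-101698842, plus strand: gtactttggagtctAGTTCTCa
Traf6 site 4, chr2:101701345-101701366, plus strand: gactttgctactgcAGTTCTCa
Irak1 site 1, chrX:74015393-74015414, minus strand: gactcagaggtcaaAGTTCTCa
Irak1 site 2, chrX:74015377-74015398, minus strand: ttctcatgcttggaAGTTCTCa
A match of letters is a description, and neither transcript was measured in these libraries.

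miR-146b-5p was the most abundant miRNA in all 9 libraries, under both diets. In the high-fat libraries 1 to 4 it held 20.3%, 21.7%, 19.9% and 18.6% of the miRNA reads. In the control libraries 1 to 5 it held 22.3%, 18.5%, 22.4%, 21.8% and 19.2%. All 4 high-fat shares lay within the range of the controls. These single-library shares rest on 160892 to 844984 reads each, and their 95% Wilson intervals, which cover counting error only, are at most 0.169 percentage points wide. The next miRNA in every library was miR-148a-3p, a marker of milk secretion, and miR-146b-5p exceeded it by 1.46 ± 0.160 times in high-fat and 1.65 ± 0.274 times in control milk (SD, n = 4 and 5).

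After scaling by library size, miR-146b-5p measured 201682 ± 15948 CPM (reads scaled to a common library size) in high-fat and 208312 ± 17254 CPM in control milk (SD, n = 4 and 5). The log2 fold change, high-fat over control, was -0.05 ± 0.10 (SE) with a 95% interval of -0.27 to 0.17, and the limma-voom adjusted p over 312 miRNAs was 0.854. The interval spans folds of 0.831 to 1.12, so a change beyond those bounds lies outside it. limma-voom called 0% of the 312 miRNAs at an adjusted p of 0.05, and 32 had an unadjusted p below 0.05, so the diet gave no call for this or any other miRNA in that fit. limma with a mean-variance trend on log2(CPM + 0.5) called 2 of the 312, neither of them a miR-146 name.

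**Figure D1:**
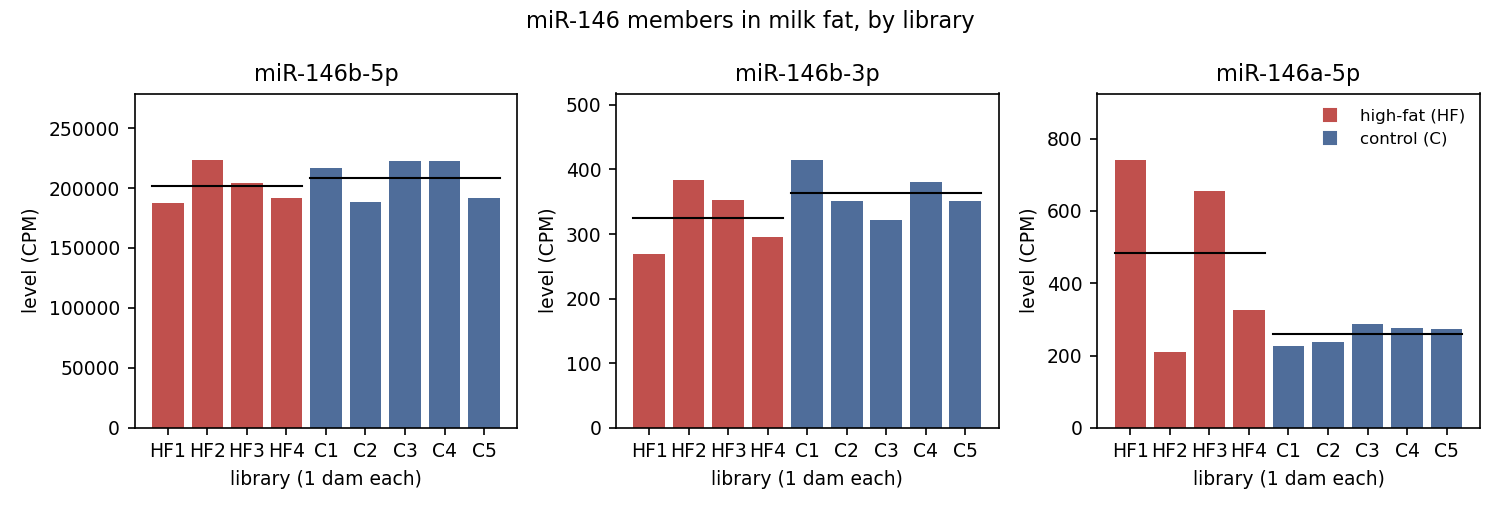
Level in CPM (y axis) of miR-146b-5p, miR-146b-3p and miR-146a-5p in each library (x axis: HF1 to HF4 high-fat, C1 to C5 control). Bars are single dams and black lines are diet means; miR-146a-5p reaches 740 and 655 CPM in HF1 and HF3 and 209 to 326 CPM in the other libraries.

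The level of miR-146b-5p also varied little from dam to dam. Its SD between dams within a diet was 0.118 on the log2 scale, the 5th lowest of 312, where the median miRNA had 0.436. Of the 20 miRNAs nearest to it in mean level, all of them less abundant, 19 had a larger SD. miR-146b-3p had an SD of 0.185, the 25th lowest, and 17 of its 20 nearest miRNAs in level had a larger one. miR-146a-5p, at nearly the same mean level as miR-146b-3p, had an SD of 0.575, and 3 of its 20 nearest had a larger one. That spread was unequal between diets, with an SD of 0.86 log2 units among high-fat dams and 0.15 among control dams.

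**Figure D2:**
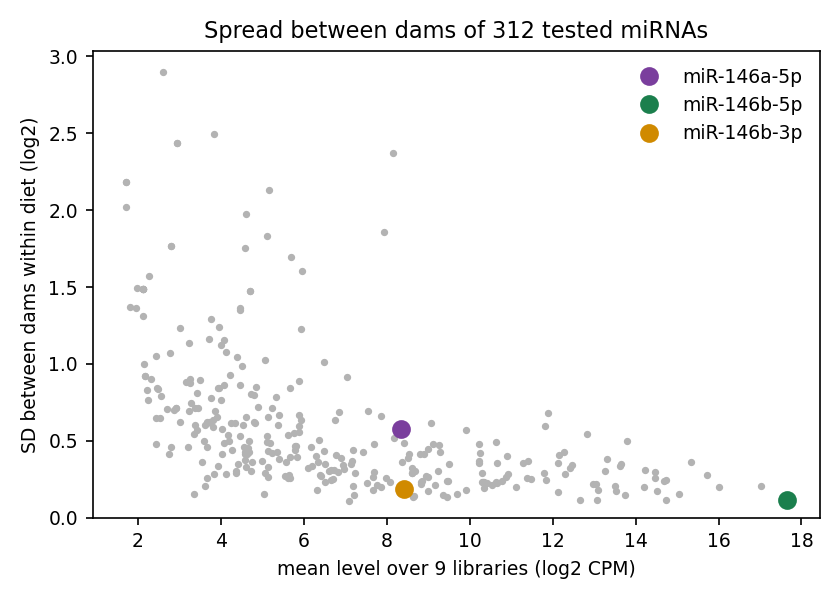
SD between dams within a diet on the log2 scale (y axis) against the mean level over 9 libraries in log2 CPM (x axis) for the 312 tested miRNAs, in grey. The coloured points are the miR-146 names, with miR-146b-5p at 0.118, miR-146b-3p at 0.185 and miR-146a-5p at 0.575.

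miR-146b-3p, the passenger strand of the miR-146b hairpin, was present at a small fraction of its partner. It measured 269, 384, 352 and 295 CPM in high-fat libraries 1 to 4, from 682, 1455, 695 and 544 counts. Control libraries 1 to 5 held 414, 352, 322, 381 and 352 CPM. High-fat libraries 1 and 4 lay below all controls and the other 2 within their range. The log2 fold change was -0.17 ± 0.15 (SE), with a 95% interval of -0.51 to 0.17 and a limma-voom adjusted p of 0.697.

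The balance of the miR-146b strands was strongly to the 5p side in every dam. The 5p strand outnumbered the 3p strand 697, 581, 580 and 650 times in high-fat libraries 1 to 4 and 523, 535, 693, 585 and 544 times in control libraries 1 to 5. The 3p strand therefore made up 0.160% ± 0.0142 of the hairpin's reads in high-fat and 0.175% ± 0.0190 in control milk (SD, n = 4 and 5). Among 101 hairpins with both strands tested, the mean log2 ratio of 5p to 3p of mir-146b, 9.22, ranked 9th from the 5p end, where the median hairpin was at 1.84. The log2 ratio differed by 0.13 ± 0.21 (SE) between high-fat and control milk, with a 95% interval of -0.34 to 0.60 and a limma adjusted p of 0.948 over the 101 hairpins. limma called 0% of these hairpins, and 7 had an unadjusted p below 0.05.

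miR-146a-5p was the scarce twin, and its level in high-fat milk depended on the dam. It measured 740, 209, 655 and 326 CPM in high-fat libraries 1 to 4, from 1877, 790, 1294 and 600 counts. In control libraries 1 to 5 it measured 227, 237, 286, 276 and 272 CPM, from 394, 290, 789, 433 and 229 counts. High-fat libraries 1, 3 and 4 lay above all controls and high-fat library 2 below all of them, so the diets overlapped. Of all 312 miRNAs, 4.81% had diets that did not overlap, and none of the miR-146 names was among them. The diet means were 482 ± 255 CPM in high-fat and 260 ± 26.0 CPM in control milk (SD, n = 4 and 5).

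The log2 fold change of miR-146a-5p was 0.71 ± 0.35 (SE), with a 95% interval of -0.07 to 1.49. This is a 1.63-fold higher level in high-fat milk with an interval of 0.954 to 2.80 fold, an unadjusted p of 0.0695 and a limma-voom adjusted p of 0.534. The fit assumed the same spread in both diets. The SD was 0.86 log2 units among high-fat and 0.15 among control dams, so the interval may be too narrow and the p too small. Without high-fat library 2 the log2 fold change was 1.00, and the limma-voom p was 0.00267 unadjusted and 0.180 adjusted. Without high-fat library 1 it was 0.45, and with high-fat libraries 1 and 3 both left out, a setting added once the values were known, it was -0.0080 with an adjusted p of 0.998. The other strand, miR-146a-3p, had 4 counts in high-fat library 1, 1 in high-fat library 4 and 0 in the other 7 libraries. A count of 0 allows up to 3 counts per library, from 7.70e-05% of the reads in high-fat library 2 to 0.000358% in control library 5.

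The contrast between the genes was tested as the ratio of their 5p strands, in which library size cancels. miR-146b-5p outnumbered miR-146a-5p 253, 1070, 312 and 590 times in high-fat libraries 1 to 4, against 954, 793, 779, 807 and 703 times in control libraries 1 to 5. Thus 1 high-fat library lay above and 3 lay below all controls. On the log2 scale the ratio averaged 8.88 ± 0.94 in high-fat and 9.65 ± 0.16 in control milk (SD, n = 4 and 5). The difference of -0.77 had a two-sided exact permutation p of 0.175, where the smallest p that groups of 4 and 5 can give is 0.0159. Without high-fat library 2 the difference was -1.16 with an exact permutation p of 0.0357, which is the smallest that 3 against 5 can give. Without high-fat libraries 1 and 3 it was -0.016 with an exact permutation p of 1. High-fat library 2 was the only high-fat library above all controls. With it left out, the others all lay below the controls, which fixed the exact permutation p at 0.0357. Without high-fat library 1 the difference was -0.47, and without high-fat library 3 it was -0.57, each with an exact permutation p of 0.393. The diet effects of the genes were therefore not shown to differ, and the difference depended on which high-fat library was left out.

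**Figure D3:**
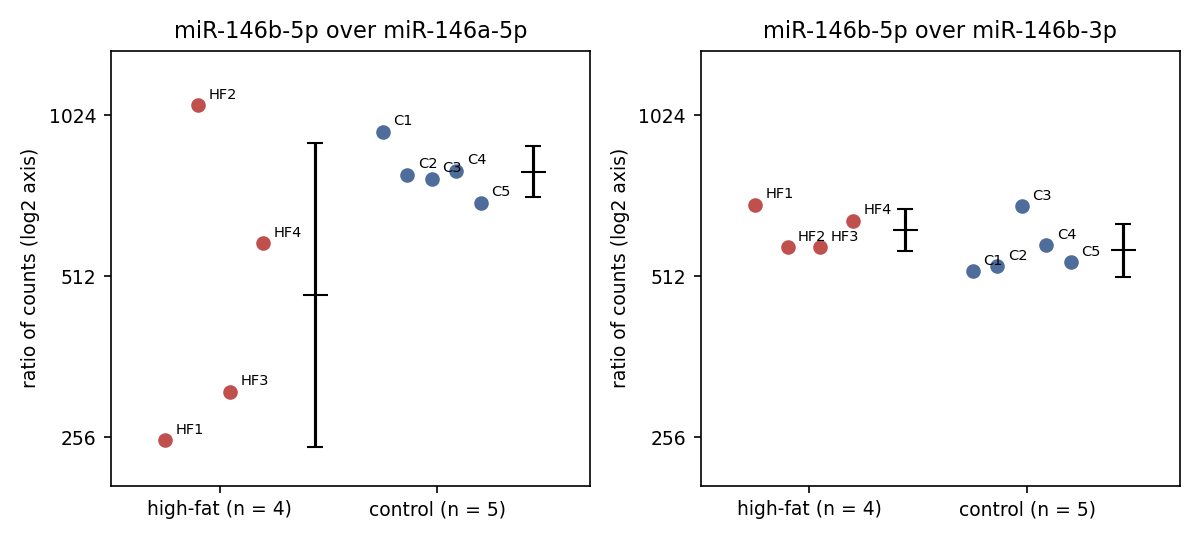
Ratio of counts (y axis, log2 scale) of miR-146b-5p to miR-146a-5p, left, and of miR-146b-5p to miR-146b-3p, right, in high-fat (n = 4) and control (n = 5) milk. Points are dams, and the bars beside them are the mean ± SD of the log2 ratio; the left ratio spans 253 to 1070 among high-fat dams and 703 to 954 among control dams.

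Since both 5p strands carry one seed, their reads were also summed. The shared seed GAGAACU held 20.2% ± 1.28 of the reads in high-fat and 20.9% ± 1.85 in control milk (SD, n = 4 and 5). miR-146a-5p supplied 0.393%, 0.0934%, 0.320% and 0.169% of these seed reads in high-fat libraries 1 to 4, and 0.105% to 0.142% in the control libraries. In order of level, miR-146b-5p stood far above the others in every library. miR-146b-3p and miR-146a-5p were neighbours, with miR-146b-3p the higher in 5 of 5 control and 1 of 4 high-fat libraries. In high-fat milk their means, 325 ± 52.5 and 482 ± 255 CPM (SD, n = 4), differed by less than the spread of miR-146a-5p between dams.

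Leukocyte markers, summed as a list, were highest in the 2 libraries with the most miR-146a-5p. The sum did not follow miR-146a-5p in every dam. Milk fat was washed and respun to remove cells, per the labels' protocols, and in bulk RNA fewer cells of a type and less RNA per cell cannot be told apart. A list of 8 leukocyte miRNAs, without miR-146a, held 1.15%, 0.0115%, 0.291% and 0.0292% of the reads in high-fat libraries 1 to 4, and 0.0369% to 0.0797% in controls. The 95% Wilson interval was 1.14% to 1.17% in high-fat library 1 and 0.284% to 0.298% in high-fat library 3. High-fat libraries 1 and 3 thus led in miR-146a-5p and in this list, and high-fat library 2 was lowest in both. High-fat library 4 went the other way, above all controls in miR-146a-5p and below all controls in the list. Of the 8, 6 were tested, and none passed limma-voom. All 6 had log2 fold changes above 0, with a median of 0.81, against 158 of 312 above 0 and a median of 0.0042 over all tested miRNAs. The defining markers were present. Among them, miR-223-3p of neutrophils and other myeloid cells measured 28.0 to 7226 CPM in high-fat and 170 to 479 CPM in control milk. miR-142a-5p measured 42.0 to 2710 CPM in high-fat and 129 to 240 CPM in control milk. These had the highest levels of the 8 and weighed most in the sum. miR-342-3p was highest in a control library, at 19.2 to 49.3 CPM in high-fat and 11.2 to 50.7 CPM in control milk. miR-150-3p was at 0 in 8 of 9 libraries. The endothelial list, both strands of miR-126a, held 0.00291%, 0.00105%, 0.00267% and 0.00205% of the reads in high-fat libraries 1 to 4, from 68, 41, 54 and 39 counts, and 0.000643% to 0.00220% in controls. It too was highest in high-fat libraries 1 and 3, but not lowest in high-fat library 2. Both strands had log2 fold changes above 0, with a median of 0.95, and neither passed limma-voom. The erythrocyte list was lowest in high-fat library 1, at 0.00201%, and highest in high-fat library 3, at 0.0650%. The part of RNA from these other cell types in the miR-146a-5p values was not tested.

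Across the 9 libraries, in log2 CPM, miR-146a-5p and the summed leukocyte list had a Pearson r of 0.90 (exact permutation p = 0.00908, 0.0363 adjusted over the 4 relations computed). Spearman's rho was 0.48 (exact permutation p = 0.194, adjusted 0.306). Without high-fat libraries 1 and 3, the farthest from the median of the list, r was 0.32, so the relation rests on these 2 libraries. miR-146b-3p and miR-146b-5p, strands of one hairpin, had an r of 0.60 (exact permutation p = 0.0909, adjusted 0.182) and a rho of 0.67 (exact p = 0.0589, adjusted 0.236), and r was 0.46 without high-fat library 2 and control library 4. miR-146a-5p and miR-146b-5p had an r of -0.42 (exact permutation p = 0.313, adjusted 0.417), a rho of -0.45 (exact p = 0.230, adjusted 0.306) and an r of -0.26 without the same 2 libraries. miR-146b-5p and a list of 8 epithelial miRNAs had an r of -0.21 (exact permutation p = 0.597, adjusted 0.597), a rho of 0.033 (exact p = 0.948, adjusted 0.948) and an r of -0.35 without high-fat library 1 and control library 5. That list, the miR-200 family with miR-182, miR-183 and miR-96, held 11.2% ± 0.124 of high-fat and 11.1% ± 0.896 of control reads (SD, n = 4 and 5). None of its 8 members passed limma-voom, and 4 had log2 fold changes above 0 and 4 below. miR-141-3p and miR-200a-3p were higher in every high-fat library than in every control, and the other members overlapped. Their log2 fold changes were 0.77 and 0.24, at limma-voom adjusted p of 0.233 and 0.442. Over all 312 miRNAs, 4.81% did not overlap, in either direction.

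**Figure D4:**
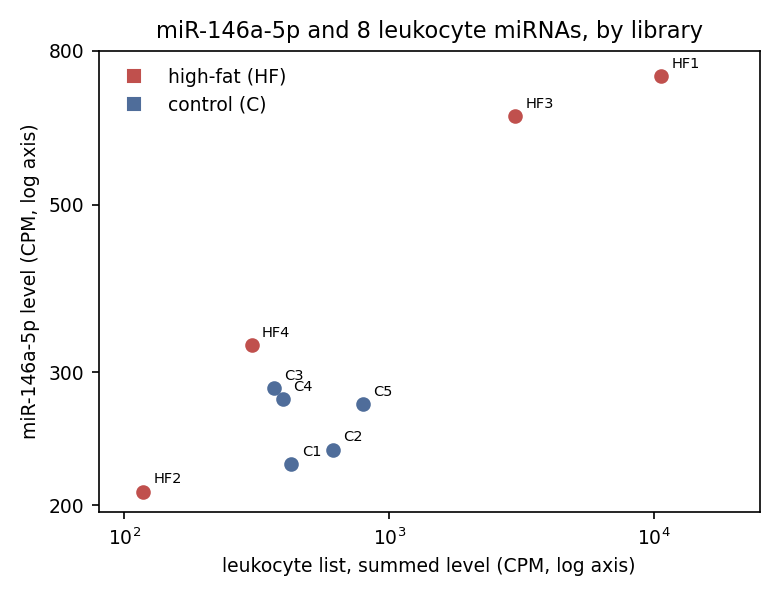
Level of miR-146a-5p (y axis, CPM, log scale) against the summed level of the 8 leukocyte miRNAs (x axis, CPM, log scale), 1 point per library (HF high-fat, C control). HF1 and HF3 stand apart at the upper right, at 740 and 655 CPM of miR-146a-5p, and HF2 lies at the lower left at 209 CPM.

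The miRNAs whose level followed each member most closely were ranked among the 311 others by Pearson r of log2 CPM (counts plus 0.5) over the 9 libraries, as a description. For miR-146a-5p these were miR-142a-5p of blood cells (r = 0.94), miR-139-5p (0.87), miR-9-5p (0.87), miR-142a-3p (0.86) and miR-155-5p, which is induced in activated immune cells (0.82). Their rank correlations were lower, from 0.52 to 0.67, except that of miR-9-5p at 0.87. miR-142a-5p, miR-142a-3p and miR-155-5p also stand in the leukocyte list, so their place here is not separate from the relation above. miR-139-5p measured 0.792 to 253 CPM in high-fat and 7.49 to 19.0 CPM in control milk. For miR-146b-5p the closest were miR-1249-3p (0.87), miR-328-3p (0.75), miR-183-5p (0.75), miR-27b-3p (0.75) and miR-183-3p (0.70). For miR-146b-3p they were miR-27b-3p (0.85), miR-27a-3p (0.73), miR-183-5p (0.72), miR-32-3p (0.71) and miR-674-3p (0.68). The strands of miR-146b thus shared miR-27b-3p and miR-183-5p among their 5, and ranked 11th and 9th in each other's lists. miR-146a-5p ranked 267th and 306th in them.

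The miRNAs of inflammatory signalling were described as a list of 12 reported to respond to or restrain Toll-like receptor and NF-kB signals, of which 11 were tested; miR-155-5p and miR-223-3p stand in the leukocyte list too. None passed limma-voom, 6 had log2 fold changes above 0 and 5 below, and the median was 0.078. miR-21a-5p, which is induced by inflammatory signals, had a log2 fold change of -0.55 ± 0.17 (SE) and miR-181c-5p one of 0.59 ± 0.17 (SE), both at a limma-voom adjusted p of 0.277. miR-181c-5p was higher in every high-fat library than in every control, and the other members tested overlapped. Over all 312 miRNAs, 4.81% did not overlap, in either direction. miR-155-5p, an NF-kB target that promotes inflammation, had one of 0.60 ± 0.87 (SE) with an adjusted p of 0.812. It measured 4.49 to 58.7 CPM in high-fat and 6.38 to 23.6 CPM in control milk. miR-132-3p, induced by endotoxin in human monocytes, had a log2 fold change of -0.75 ± 0.48 (SE) with an adjusted p of 0.650. miR-147-3p was the member that missed the count filter, at 0 to 7.10 CPM in high-fat and 0 to 1.28 CPM in control milk.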

How the data were processed

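The deposited table holds read counts per precursor and mature miRNA, 1 column per dam. The authors wrote them with comma separators, which were removed here and left whole numbers. limma-voom was the test chosen, and no count model was run. The submitters' processing notes name cutadapt 1.9.1 and the genome build GRCm38. Which aligner, counter and miRBase release were used is not given in the sources. The highest row per mature name and library was kept. The filter asked for 10 counts at the depth of the median library in 4 or more libraries, and for 15 over all libraries; it removed 0.0470% of all counts. Libraries were scaled by trimmed mean of M values, and limma 3.58.1 in R 4.3.3 fitted log2 CPM with voom weights and diet as the only term, adjusted by Benjamini-Hochberg over 312 names. Arm ratios used counts plus 0.5. The fits were tested on simulated data. The exact test of the ratio used SciPy 1.17.1, and exact p-values of the relations were computed over all pairings of the libraries with NumPy 2.4.6. Libraries of one diet differed, with a chi-square per degree of freedom of at least 50.2. The members and lists were chosen with earlier results of these data known. The miRNAs named were the members, miR-146a-3p, the 5 most alike in pattern to each member, and list members.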

Additional observations from a re-analysis of the deposited data

Results flagged for a closer look

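No value of a miR-146 name or ratio stood apart from the others of its diet by Dixon's test. That test looks at 1 extreme value at a time, so it could not flag high-fat libraries 1 and 3 together, which were both high in miR-146a-5p. Of 32 groups of values searched, 4 held a library far from the rest, where 1 in 20, or 1.6, is due by chance, and all 4 were shares of marker lists. High-fat library 3 held 0.0650% of its reads in the erythrocyte list and 0.00910% in the striated muscle list. High-fat library 4 held 2.57% in the stromal list. Control library 5, the shallowest, held 12.7% in the epithelial list.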

How the results depend on the processing

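Depth limits miR-146a-3p most, which was near the floor of a count of 0. The log2 fold changes of miR-146b-5p, of miR-146b-3p and of the mir-146b arm ratio kept their sign and gave no call under all 17, 17 and 13 alternatives run. That of miR-146a-5p kept its sign and gave no call under 16 of 17, and was -0.0080 without high-fat libraries 1 and 3, which hold its highest levels. Leaving out 1 library at a time gave -0.16 to -0.0042 for miR-146b-5p, -0.32 to -0.069 for miR-146b-3p, 0.45 to 1.00 for miR-146a-5p, 0.075 to 0.20 for the arm ratio and -1.16 to -0.47 for the log2 ratio of miR-146b-5p to miR-146a-5p, which was called without high-fat library 2. The count of called miRNAs was 0 in the main setting, 4 without a filter on low counts, 2 with library quality weights, 2 with log2(CPM + 0.5) and a trend, 3 with the replicate block, and 0 to 4 with 1 library left out, 4 of them without control library 5. No miR-146 name was called in any of these, and the cause was not tested. The r of miR-146a-5p with the leukocyte list was 0.32 without its 2 farthest libraries. Replicate numbers are shared by the diets, but same-numbered libraries deviated together with r of only 0.062, -0.076, 0.20 and -0.16. The numbers were therefore not taken to pair dams. Still, 4 of 8 libraries correlated best with their own number, more than random matching would give on average, so pairing was not excluded. With the replicate block the log2 fold changes were 0.79 for miR-146a-5p, -0.080 for miR-146b-5p and -0.18 for miR-146b-3p, and no miR-146 call changed.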
